A study of Homo sapiens with 54 samples.

Results

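The snoRNA host genes were taken as every gene of the 4 expression tables named *SNHG* followed by a number, together with *GAS5*, *ZFAS1* and *EPB41L4A-AS1*. This gave 25 of the 55906 gene names in each table, namely *SNHG1*, *SNHG3* to *SNHG12*, *SNHG14* to *SNHG23*, *SNHG25* and those 3. The rule itself uses gene names and no measured value. They were measured in 54 RNA-sequencing libraries of 4 cancer cell lines in which the splicing factors TRA2A and TRA2B, a pair of paralogs, had been depleted. The lung lines A549 and NCI-H23 stably expressed Zim3-dCas9, a nuclease-dead Cas9 with a repressor domain that silences the promoter to which a guide leads it (CRISPRi). They received guides to control loci (Control KD), *TRA2A* (*TRA2A* KD), *TRA2B* (*TRA2B* KD) or both genes (*TRA2A/B* DKD) and were collected on day 5. The glioma lines LN229 and LN319 received Cas9, which cuts the targeted gene, with the guides and were collected on day 7. Cells overexpressing luciferase (Luc) were given guides to control loci, to *TRA2A* or to *TRA2B*, and cells overexpressing a *TRA2B* cDNA (TRA2B-OE) guides to control loci or to *TRA2A*. Each of the 18 groups held 3 replicate libraries of polyadenylated RNA, with 12 libraries in each lung line and 15 in each glioma line. The labels do not say that replicates came from separate cultures, so p-values measure the spread between these libraries, which may be technical.

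Small nucleolar RNAs (snoRNAs) guide the chemical modification of ribosomal and other RNAs, and most human snoRNAs are cut out of the introns of a host gene. In the genes considered here the spliced exons carry little or no coding sequence, so that ribosomes which engage them soon meet a stop codon, and many of these spliced RNAs are known targets of nonsense-mediated decay (NMD). Several host genes start with a run of pyrimidines, the 5′ TOP sequence of ribosomal protein genes, which ties their translation to growth signals. RNA decay itself was not measured in these libraries. Polyadenylated libraries show the spliced host RNA and not the snoRNA.

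In the Gencode v44 and RefSeq annotations 24 of the 25 genes were found, and *SNHG23* was not. Each of the 24 contained at least 1 snoRNA or Cajal body RNA, 12 contained exactly 1, and the highest number was 84 in *SNHG14*, the imprinted host of the SNORD115 and SNORD116 clusters. *GAS5* contained 11 and *SNHG1* 9. The median transcript length of a gene ran from 140 bases in *SNHG25* to 5186 in *SNHG14*, with a median of 941 over the 24 genes beside 868 over all genes with a length. On the same strand 7 of the 24 overlapped another annotated gene, for example *SNHG3* and *RCC1* or *SNHG4* and *MATR3*, and on the opposite strand 13 did. The libraries were directional, but the strand setting of the quantification is not given in the sources used here, so values of overlapping genes can share reads with the neighbor.

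The promoter table of RefSeq (GRCh38.p14) held 20 of the 25 genes, and did not list *SNHG6*, *SNHG9*, *SNHG15*, *SNHG23* and *SNHG25*. The start sites are shown for the genes that passed the test in the double knockdown of both lung lines and have an entry, and for *SNHG4*, *SNHG12*, *SNHG18* and *SNHG19*, which start on a pyrimidine run. Each line gives 20 bases before and 20 bases from the RefSeq start on the gene's own strand, 5′ to 3′. Capitals mark the unbroken run of C and T that begins at the start, with none where the gene starts on a purine. RefSeq and Gencode starts of a gene can differ. The regions were chr5:112160506-112160545 on the plus strand for *EPB41L4A-AS1*, chr1:173869026-173869065 on the minus strand for *GAS5*, chr11:62855866-62855905 minus for *SNHG1*, chr6:85678714-85678753 minus for *SNHG5*, chr9:136728165-136728204 minus for *SNHG7*, chr4:118278742-118278781 plus for *SNHG8*, chr20:49278622-49278661 plus for *ZFAS1*, chr1:28581854-28581893 minus for *SNHG12*, chr16:2155339-2155378 minus for *SNHG19*, chr5:139274081-139274120 plus for *SNHG4* and chr5:9546180-9546219 plus for *SNHG18*, whose run goes past the end of the window.
EPB41L4A-AS1: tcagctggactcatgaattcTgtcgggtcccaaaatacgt
GAS5: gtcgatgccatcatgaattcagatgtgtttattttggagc
SNHG1: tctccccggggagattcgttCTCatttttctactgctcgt
SNHG5: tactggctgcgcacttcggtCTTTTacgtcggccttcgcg
SNHG7: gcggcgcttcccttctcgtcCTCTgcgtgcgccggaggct
SNHG8: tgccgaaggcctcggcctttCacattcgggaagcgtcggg
ZFAS1: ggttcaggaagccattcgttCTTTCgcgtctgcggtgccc
SNHG12: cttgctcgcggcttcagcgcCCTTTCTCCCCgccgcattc
SNHG19: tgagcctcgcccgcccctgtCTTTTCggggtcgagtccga
SNHG4: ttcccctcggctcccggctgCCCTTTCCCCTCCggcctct
SNHG18: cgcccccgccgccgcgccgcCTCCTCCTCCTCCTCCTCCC

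A start with C followed by C or T to a run of at least 5 bases was found in 6 of the 20 genes, or 30%, beside 4.07% of all 35116 promoters in the table, read on the gene's strand only. The 6 were *SNHG4*, *SNHG5*, *SNHG12*, *SNHG18*, *SNHG19* and *ZFAS1*. Of the 8 genes that passed the test in both double knockdowns, 7 had an entry and 2 of those, *SNHG5* and *ZFAS1*, had such a run, while *GAS5* started on a purine at the RefSeq start. A match is a description of these letters and not a mapped site.

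The targeted genes fell in the libraries labelled for them. In A549, *TRA2A* went from 75.1 ± 5.08 TPM (transcript abundance scaled to a fixed library total; SD, n = 3) in Control KD to 7.18 ± 2.81 in *TRA2A* KD and 10.4 ± 0.693 in *TRA2A/B* DKD, and *TRA2B* from 137 ± 3.17 to 13.3 ± 0.856 in *TRA2B* KD and 22.4 ± 4.72 in the DKD. In NCI-H23 the double knockdown left 20.5% of the control *TRA2A* and 25.2% of the control *TRA2B*. In Luc cells *TRA2A* KO left 62.9% of *TRA2A* RNA in LN229 and 33.2% in LN319, and *TRA2B* KO left 66.0% and 35.1% of *TRA2B* RNA. In TRA2B-OE cells *TRA2A* KO left 87.2% in LN229, where the groups overlapped (two-sided exact permutation p = 0.2), and 52.8% in LN319. Each other drop reached the smallest p of an exact permutation test with 3 against 3 libraries, 0.1. By limma both *TRA2A* and *TRA2B* were called lower in LN319 Luc *TRA2B* KO. Of these 2 genes, 1 was called higher and 1 lower in TRA2B-OE Control KO of both glioma lines. The same split was found in both NCI-H23 single knockdowns and LN229 *TRA2B* KO. The study reports a strong decrease of TRA2A on immunoblots of LN319 cells overexpressing *TRA2B*. Among markers of origin, the keratin *KRT8* was at 1949 to 3116 TPM in A549 and 445 to 891 TPM in NCI-H23, but the epithelial genes *EPCAM* and *KRT19* reached only 3.77 and 26.7 TPM in A549 and 1.74 and 0.604 TPM in NCI-H23, and the lung genes *NKX2-1* and *SFTPB* were at most 1.06 TPM in both. The keratin *KRT18* was at 2068 to 3246 TPM in A549 and 925 to 1369 TPM in NCI-H23. The cadherin *CDH1* was at 7.95 to 25.2 TPM and 0.550 to 2.47 TPM, and the lung gene *NAPSA* at 0.988 to 5.08 TPM and 0.325 to 1.61 TPM. The stem cell factor *SOX2* was at 20.4 to 90.8 TPM in LN229 and 316 to 490 TPM in LN319, and the astrocyte filament *GFAP* did not exceed 5.17 TPM in either. LN319 also held the epithelial cadherin *CDH1* at 116 to 150.1 TPM and *NKX2-1* at 5.68 to 20.2 TPM, while the glial factor *OLIG2* was at no more than 0.140 TPM and the neural stem cell filament *NES* at 6.12 to 14.7 TPM, beside 213 to 286 TPM in LN229. In LN229 *OLIG2* was at 5.93 to 14.2 TPM and the glial or neural stem gene *PTPRZ1* at 8.67 to 81.1 TPM, beside 1.29 to 4.11 TPM in LN319.

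Not all host genes were expressed in every line. *SNHG18* was at 0 in every A549 library and at most 0.0717 TPM in NCI-H23 and 0.110 TPM in LN319, but at 3.06 to 9.54 TPM in LN229. *SNHG23* was at 76.8 to 136 TPM in LN319, 1.14 to 4.59 TPM in A549, 0.0699 to 1.15 TPM in NCI-H23 and 0 to 0.809 TPM in LN229. A gene entered the tests of a line when 4 or more of its libraries reached 1 TPM. This left 23 host genes in NCI-H23 and 24 in each of the other lines. The median level of the host genes in the control libraries was highest in LN229, with 30.9 TPM, and was 19.9 TPM in A549, 21.4 TPM in NCI-H23 and 19.2 TPM in LN319. *SNHG6*, *ZFAS1*, *GAS5* and *SNHG19* were above 100 TPM in the A549 controls (157 ± 47.8, 134 ± 45.3, 128 ± 65.0 and 127 ± 79.1 TPM), and their order was within the spread of the replicates. In LN319 *GAS5* was highest with 372 ± 24.5 TPM, above *SNHG6* at 183 ± 5.48 TPM without overlap.

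The double knockdown asks what happens when both paralogs are depleted at once. In A549, 14 of 24 host genes tested rose and 0 fell, where 14.3% of all 16405 genes tested were higher and 16.3% lower (adjusted p under 0.05, limma with Benjamini-Hochberg adjustment over all genes). The median log2 fold change was 1.57 for the host genes and 0.03 for all genes, and 15 of the 24 lay above the control libraries without overlap (21.4% of all genes did). The log2 fold change was below 0 in 6 of the 24, none of which passed the test. Summed over the 25 genes, the level went from 996 ± 331 TPM in Control KD (n = 3) to 3116 ± 707 TPM in the DKD, with 1256 ± 475 in *TRA2A* KD and 1456 ± 220 in *TRA2B* KD. Log2 fold changes are on the scale of log2(TPM + 0.1) after scaling between libraries, which understates the change of low genes. In bulk RNA, fewer cells of a kind and less RNA per cell cannot be told apart.

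In NCI-H23 the rise was seen in fewer genes. Of 23 tested, 8 were higher and 1 lower, where 20% of all 16293 genes were higher and 23.2% lower. Above the control libraries without overlap lay 8 of the 23, or 34.8%, beside 26.1% of all genes. Without DKD replicate 1, 5 of 23 host genes were higher, beside 16.7% of all genes. On TPM as deposited, which moved the median of all genes to 0.17 on the log2 scale, 11 were higher and 0 lower (26.8% and 15.8% of all genes). Their median log2 fold change was 0.70, beside 0.02 for all genes. The summed level went from 999 ± 291 TPM in Control KD to 2440 ± 718 TPM in the DKD. With an absolute log2 fold change above 1 as well, 13 host genes were counted in A549 and 6 in NCI-H23 (12.8% of all genes in each line). The 2 lines have separate controls. Of the 23 genes tested in both, 18 had a fold change above 0 in both, 2 below 0 in both and 3 of opposite sign. The same 8 genes were higher in both, and 8.39% of the 14450 genes tested in both lines were. Across the 23 genes the fold changes of the lines had a Pearson r of 0.49 and a Spearman rho of 0.61, over genes that share libraries and are not replicates.

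*GAS5*, growth arrest specific 5, carries its snoRNAs in nearly every intron and its exons have almost no coding capacity. It was at 137, 189 and 59.4 TPM in the A549 Control KD libraries and at 531, 638 and 878 TPM in the DKD libraries, a log2 fold change of 2.45 ± 0.43 (SE, adjusted p = 0.0016). In NCI-H23 it went from 87.5, 191 and 171 TPM to 755, 374 and 597 TPM (1.80 ± 0.34, adjusted p = 0.00139). The DKD libraries were clear of the control libraries in both lines. The *TRA2A* KD libraries had 131, 261 and 122 TPM in A549 and 229.9, 96.5 and 183 TPM in NCI-H23, overlapping the controls. The *TRA2B* KD libraries had 219, 217 and 172 TPM in A549, again overlapping, and 252, 211 and 246 TPM in NCI-H23, above all 3 controls.

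*ZFAS1*, an antisense neighbor of *ZNFX1* and host of the SNORD12 family, behaved likewise with tighter replicates. It had 149, 170.0 and 83.1 TPM in the A549 controls and 325, 384 and 504 TPM in the DKD (1.55 ± 0.30, adjusted p = 0.00271). In NCI-H23 it had 132, 181 and 177 TPM and then 504, 318 and 408 TPM (1.16 ± 0.16, adjusted p = 0.000166). Every DKD library was above every control library and every single-knockdown library of its line. The *TRA2A* KD libraries had 146, 202 and 126 TPM in A549 and 193, 136 and 181 TPM in NCI-H23, and the *TRA2B* KD libraries 181, 194 and 170.1 TPM and 227, 197 and 223 TPM.

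*SNHG6*, host of SNORD87, had the smallest adjusted p of the host genes in A549. It rose from 161, 202 and 107 TPM to 618, 686 and 806 TPM in A549 (2.12 ± 0.27, adjusted p = 0.000174). In NCI-H23 it rose from 103, 156 and 151 TPM to 634, 333 and 494 TPM (1.65 ± 0.28, adjusted p = 0.000826). Its single-knockdown libraries were below the DKD, at 215, 328 and 217 TPM for *TRA2A* KD and 303, 308 and 230.3 TPM for *TRA2B* KD in A549. In NCI-H23 they were at 287, 129.5 and 274 TPM and at 199, 202 and 231 TPM, so that 1 *TRA2A* KD library fell within the control range.

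*EPB41L4A-AS1*, host of SNORA13, had the largest fold change among the host genes in the A549 DKD, from 6.06, 11.6 and 1.19 TPM to 39.6, 31.7 and 55.3 TPM (3.10 ± 0.68, adjusted p = 0.00597). Without Control KD replicate 3 this value was 2.13, and without Control KD replicate 2 it was 3.82. In NCI-H23 it went from 6.96, 3.11 and 8.88 TPM to 22.5, 9.47 and 18.5 TPM (1.28 ± 0.41, adjusted p = 0.0263), and the lowest DKD library was barely above the highest control. Without NCI-H23 Control KD replicate 2 the fold change was 0.82 (adjusted p = 0.0867), and the call was also lost without DKD replicate 1 (0.0940) or replicate 3 (0.0725). In the single knockdowns *EPB41L4A-AS1* ran from 5.04 to 13.5 TPM in A549, and in NCI-H23 it stayed between 4.19 and 11.8 TPM.

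*SNHG8*, host of SNORA24, went from 51.0, 82.2 and 14 TPM to 208, 206 and 296 TPM in A549 (2.5 ± 0.56, adjusted p = 0.00677). In NCI-H23 it went from 13.5, 58.5 and 34.3 TPM to 141, 78.6 and 123 TPM (1.73 ± 0.47, adjusted p = 0.0126). *SNHG1*, the host of the SNORD22 and SNORD25 to SNORD31 series, went from 42.5, 54.7 and 14.3 TPM to 102, 121 and 184 TPM in A549 (1.95 ± 0.60, adjusted p = 0.0299). For both genes the third A549 control was the lowest by far, and no DKD library reached down to the controls. Without Control KD replicate 3 the A549 value of *SNHG8* was 1.70, and the call stood. In NCI-H23 *SNHG1* went from 25.8, 68.0 and 55.3 TPM to 177, 103 and 147 TPM (1.44 ± 0.31, adjusted p = 0.0033). The A549 call of *SNHG1* was lost without Control KD replicate 3 (1.30, adjusted p = 0.0637), without DKD replicate 2 (0.0674) and without DKD replicate 3 (0.0998).

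*SNHG5*, host of the SNORD50 pair, went from 9.07, 17.5 and 5.74 TPM to 30.5, 24.6 and 41.3 TPM in A549 (1.60 ± 0.37, adjusted p = 0.00786). In NCI-H23 it went from 12, 30.7 and 21.7 TPM to 44.3, 32.3 and 49.7 TPM (0.89 ± 0.32, adjusted p = 0.0441), with a narrow gap between the groups. *SNHG7*, host of the SNORA17 pair, went from 8.99, 18.4 and 4.48 TPM to 26.7, 28.2 and 33.4 TPM in A549 (1.60 ± 0.45, adjusted p = 0.0203). In NCI-H23 *SNHG7* went from 4.86, 9.31 and 7.10 TPM to 12.1, 9.42 and 12 TPM (0.53 ± 0.19, adjusted p = 0.0426). In NCI-H23 these 2 had the smallest fold changes and largest adjusted p of the 8, and both calls were lost without Control KD replicate 1, with adjusted p = 0.16 for *SNHG5* and 0.147 for *SNHG7*, and also without Control KD replicate 3, DKD replicate 1 or DKD replicate 3. In A549 the *SNHG7* call was lost without DKD replicate 2 (0.0522) or replicate 3 (0.0636).

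**Figure D1:**
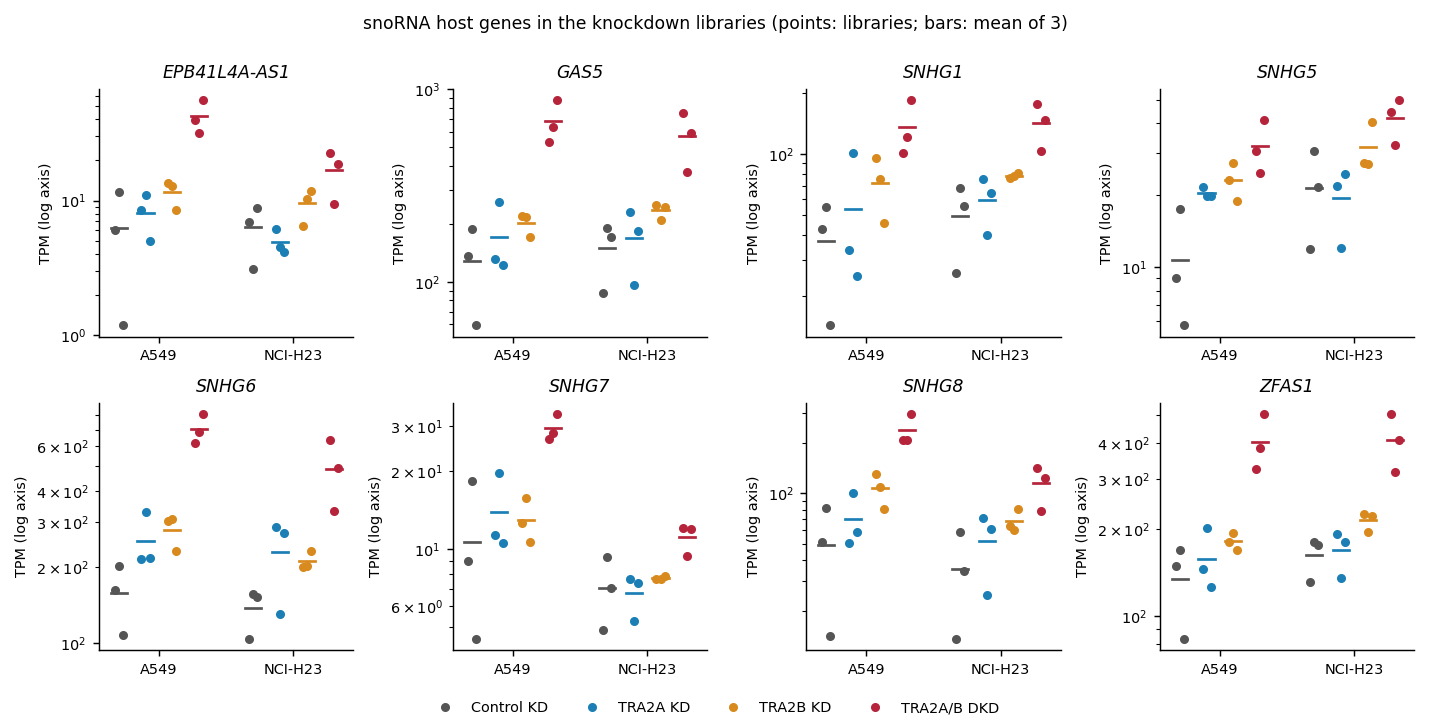
TPM on a log axis of the 8 host genes that were higher in the *TRA2A/B* DKD of both lung lines, with 1 point per library, the mean of 3 libraries as a bar and the 4 conditions in color. The DKD points lie above the Control KD points in both lines for every gene, widely for *GAS5* (374 TPM or more against 191 TPM or less) and by the smallest margin for *SNHG7* in NCI-H23 (9.42 against 9.31 TPM).

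Other host genes rose in the A549 double knockdown alone under the test. *SNHG15*, host of SNORA9, changed by 1.86 (adjusted p = 0.013), *SNHG21* by 1.71 (0.00603), *SNHG20* by 1.26 (0.00451) and *SNHG14* by 0.65 (0.0216) on the log2 scale. *SNHG19*, host of SNORD60, changed by 1.70 (adjusted p = 0.049) and *SNHG12*, host of SNORD99, by 1.59 (0.045), both near the threshold and both lost without Control KD replicate 3 (0.101 and 0.106) and without any of the 3 DKD libraries. Both were also lost without Control KD replicate 1, as was *SNHG14*, whose call was lost too without Control KD replicate 2 or DKD replicate 1. In NCI-H23 *SNHG19* had 1.40 (adjusted p = 0.0679) and *SNHG21* 0.82 (0.0644). Whether the response differed between the lines was not tested.

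A few host genes went the other way. *SNHG17*, host of the SNORA71 family, fell in the NCI-H23 DKD from 12.6, 17.0 and 17.8 TPM to 12.6, 10.5 and 12.3 TPM, by 0.56 on the log2 scale after scaling (SE 0.13, adjusted p = 0.00589). Its A549 value was -0.68 (adjusted p = 0.153). The NCI-H23 call was lost on TPM as deposited (adjusted p = 0.0622). *SNHG22*, host of the Cajal body RNA SCARNA17, had a log2 fold change of -1.09 in the A549 DKD (adjusted p = 0.0608). The short RNAs *SNHG9* in A549 and *SNHG25* in NCI-H23 had estimates of 3.02 ± 1.77 (adjusted p = 0.224) and 2.54 ± 1.85 (0.298) and did not pass the test. Each was listed at 0 in 1 of the 3 control libraries, so their fold changes depend on the pseudocount.

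Libraries differed in how much short RNA they held, and the host genes moved with it in the lung lines, less evenly in A549. The deviation of a library was taken as the median, over genes, of log2 level minus the gene's mean over the line. Control KD replicate 3 of A549 had a median deviation of -1.52 over the host genes and -1.76 over 894 other genes with transcripts shorter than 500 bases, and its median correlation with the other A549 libraries was 0.837. *TRA2A* KD replicate 3 of A549 had -0.32 over the host genes and -0.90 over short genes. Replicate 1 of that group had -0.27 and 0.22. Over 12 libraries the 2 deviations had a Pearson r of 0.82 in A549 and 0.93 in NCI-H23. In NCI-H23 the lowest were Control KD replicate 1, with -0.55 for the host genes and -0.16 for 986 short genes, and *TRA2A* KD replicate 2, with -0.71 and -0.30. Mitochondrial genes took 31.9% and 33.4% of the TPM of those 2 libraries. The part of short RNA in the DKD result was not tested, but its size beside it was measured. Short transcripts had a median log2 fold change of 0.55 in the A549 DKD, where 6.6% were higher and 4.7% lower, and of 0.39 in the NCI-H23 DKD, where 9.43% were higher and 5.78% lower.

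Without Control KD replicate 3, 11 of 24 host genes were higher in the A549 DKD and 0 lower (17.5% and 20.2% of all genes), and their median log2 fold change was 1.00. With the trend across transcript length and GC content removed from each library, 14 of 23 were higher and 0 lower in A549 (14.2% and 21.4% of all genes), with a median of 1.51, and 8 were higher and 1 lower in NCI-H23 (20.5% and 26.7%), with a median of 0.66. In NCI-H23 the median was 0.36 without Control KD replicate 1, with 6 of 23 host genes higher (18% of all genes). It was 0.96 without DKD replicate 2, with 14 higher (17.1% of all genes). Within the host genes, longer transcripts had the smaller fold changes, with a Spearman rho of -0.38 in A549 and -0.59 in NCI-H23 over 23 genes.

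**Figure D2:**
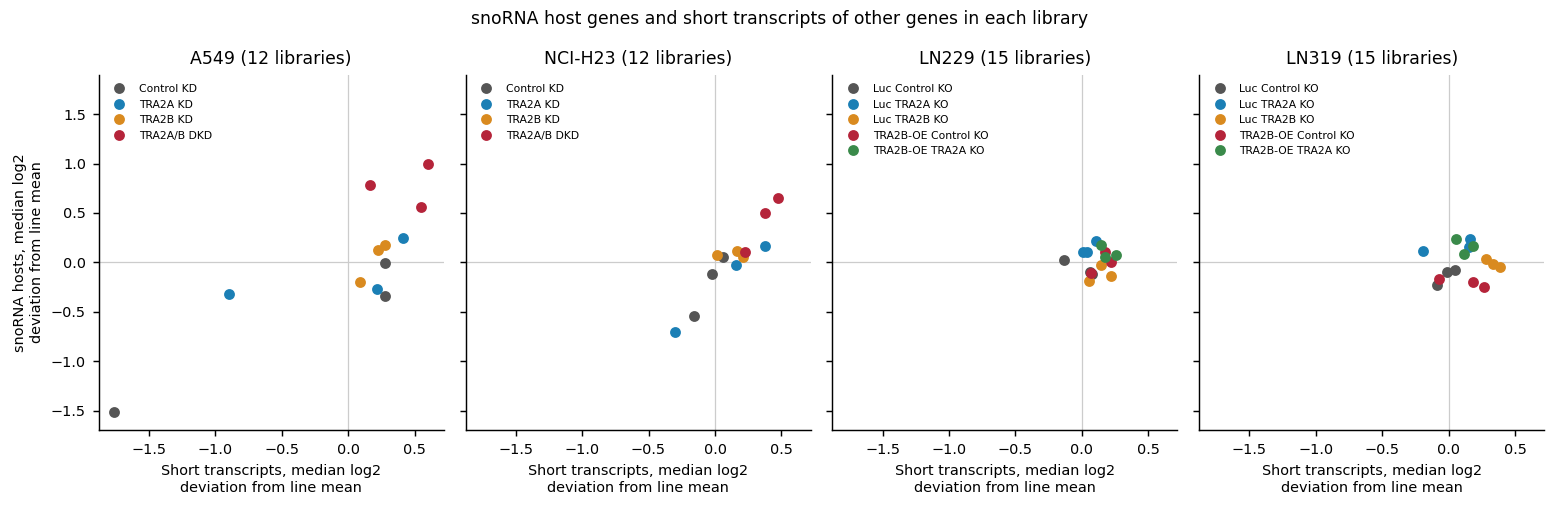
Median log2 deviation from the line mean of the host genes (vertical axis) against that of other genes with transcripts under 500 bases (horizontal axis), 1 point per library, colored by group. In A549, Control KD replicate 3 sits alone at -1.76 and -1.52, while the LN229 and LN319 libraries lie between -0.24 and 0.38 on both axes.

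The single knockdowns ask whether loss of 1 paralog is enough, and share the Control KD libraries with the DKD. By limma 0 host genes passed in either direction in any of the 4. In A549 *TRA2A* KD 0.0488% of all genes were higher and 0.158% lower, and in *TRA2B* KD 0.28% and 0.061%. In NCI-H23 the shares were 0.374% and 0.601% for *TRA2A* KD and 0.16% and 0.0368% for *TRA2B* KD, so that few genes of any kind passed. Without Control KD replicate 2, 1 host gene was called in each single knockdown of A549. At an unadjusted p under 0.05, 3 host genes were counted in A549 *TRA2A* KD (11.3% of all genes), 4 in *TRA2B* KD (13.5%), 2 in NCI-H23 *TRA2A* KD (13.6%) and 3 in *TRA2B* KD (10.6%).

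The medians of the host genes were above 0 in all 4 single knockdowns, but 1 control library carried much of this. The median log2 fold change was 0.39 in A549 *TRA2A* KD and 0.59 in *TRA2B* KD, and fell to -0.02 and 0.15 without Control KD replicate 3. In NCI-H23 it was 0.07 and 0.49, and became -0.12 and 0.28 without Control KD replicate 1. The *TRA2B* KD of NCI-H23 lay above the controls without overlap for 13 of 23 host genes (10.9% of all genes), against 1 gene in its *TRA2A* KD (7.59%). In A549 the counts were 4 (10.3%) for *TRA2B* KD and 2 (7.05%) for *TRA2A* KD.

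Whether the double knockdown differed from the sum of the single ones was tested in 1 contrast. In A549 1 of 24 host genes passed, *SNHG16*, host of the SNORD1 family, and 14.7% of all genes did. In NCI-H23 2 of 23 passed, *SNHG17* and *ZFAS1*, and 21% of all genes did. *SNHG16* had an excess of 0.53 on the log2 scale (adjusted p = 0.0464). Its Control KD libraries were at 51.7, 50.4 and 63.1 TPM, *TRA2A* KD at 48.2, 51.7 and 37.5, *TRA2B* KD at 47.2, 49.0 and 43.6, and the DKD at 65.4, 66.1 and 77.3 TPM. The DKD was highest while the single-knockdown libraries were within or below the control range. *ZFAS1* in NCI-H23 had an excess of 0.79 (adjusted p = 0.0283) and *SNHG17* a deficit of -0.80 (0.0121). With 3 NCI-H23 libraries left out, 7 of 23 passed, beside 24.5% of all genes. They were Control KD replicate 1, *TRA2A* KD replicate 2 and DKD replicate 2, each lowest in short RNA within its own group. No *TRA2B* KD library was left out. DKD replicate 2 was not low for the line, with a median deviation of 0.22 over short genes. It was also the lowest DKD library over the host genes, at 0.10. The A549 count was 6 without Control KD replicate 3, 2 without Control KD replicate 2 and 0 without Control KD replicate 1, *TRA2A* KD replicate 3 or any 1 *TRA2B* KD or DKD library. The call of *ZFAS1* was lost without Control KD replicate 2 or 3 or *TRA2B* KD replicate 2.

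**Figure D3:**
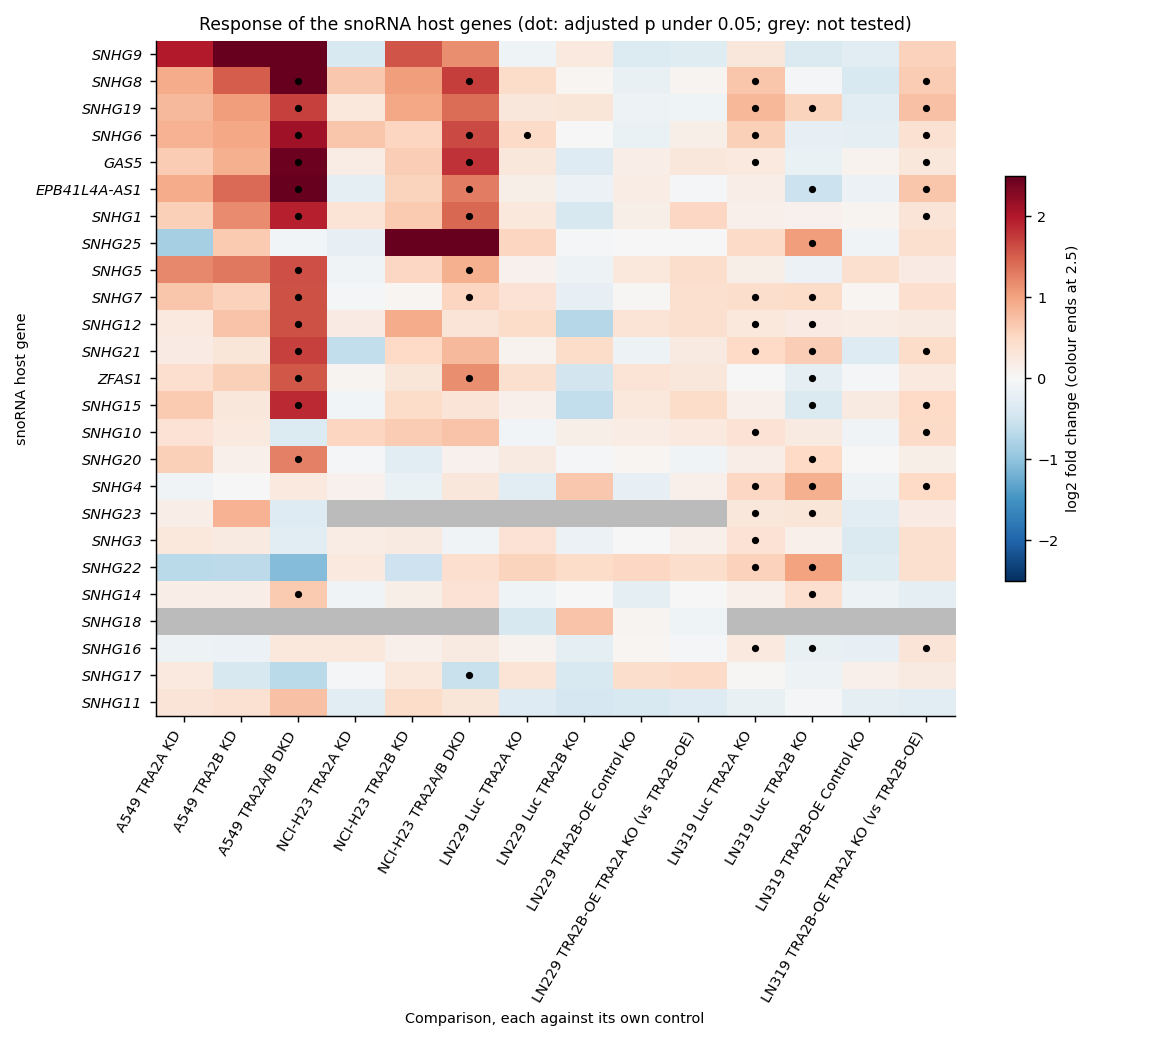
Log2 fold change of each host gene (vertical axis) in the 14 comparisons, each against its own control (horizontal axis), from blue (lower) to red (higher), with dots for an adjusted p under 0.05 and grey where a gene was not tested. Dots gather in the A549 DKD (14) and NCI-H23 DKD (9) columns and in 3 LN319 columns (13, 14 and 11), and there is 1 in LN229.

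In LN319 the *TRA2A* knockout raised host genes by less than 2-fold. Of 24 tested, 13 were higher and 0 lower in Luc cells, where 6.82% of all 19303 genes were higher and 7.44% lower. The median log2 fold change was 0.26, beside 0.01 for all genes, and 13 did not overlap with the control above it (16% of all genes). The sum over the host genes was 1365 ± 44.4 TPM in Luc Control KO and 1711 ± 85 TPM in Luc *TRA2A* KO. Fitting without 1 library left 6 to 10 genes higher, with 8 without Luc Control KO replicate 1, 7 without replicate 2, and 6 and 8 without Luc *TRA2A* KO replicate 1 and 2. The shares of all genes in these fits are not given, so whether host genes lost more calls than other genes is not shown. Short transcripts did not move with the host genes, at a median log2 fold change of 0.07, with 1.75% higher and 1.75% lower.

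*SNHG6* in LN319 had 183, 178 and 188 TPM in Luc Control KO and 264, 259 and 283 TPM in Luc *TRA2A* KO (0.59 ± 0.08, adjusted p = 0.00071). *GAS5* had 396, 373 and 347 TPM and 470.5, 436 and 380.1 TPM, overlapping in TPM but not after scaling (0.24 ± 0.06, adjusted p = 0.0266). *ZFAS1* had 87.8, 81.2 and 78.5 TPM and 85.3, 76.5 and 79.3 TPM, with full overlap. The *SNHG6* call stood under every alternative tried. The *GAS5* call was lost without Luc Control KO replicate 2 (0.0825) or replicate 3 (0.0901) and without Luc *TRA2A* KO replicate 1 (0.0971) or replicate 2 (0.0726). The other called genes with a stable call were *SNHG19* (0.83, adjusted p = 0.00466), *SNHG8* (0.69, 0.00319), *SNHG22* (0.58, 0.00534), *SNHG4* (0.53, 0.00311) and *SNHG21* (0.50, 0.00692). *SNHG7*, *SNHG10*, *SNHG3*, *SNHG23*, *SNHG12* and *SNHG16* had 0.43 to 0.24 and were each lost without at least 1 library.

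The TRA2B-OE cells ask whether extra *TRA2B* removes the response to *TRA2A* KO. With their own TRA2B-OE Control KO libraries as reference, 11 of 24 host genes were higher and 0 lower in LN319, where 1.48% of all genes were higher and 1.29% lower. The median was 0.38, and 19 of 24 lay above the control without overlap (12% of all genes). The sum went from 1368 ± 27.4 TPM to 1684 ± 47.2 TPM. Leaving out any 1 of the 6 libraries left 1 to 3 genes called, and the count was 3 without TRA2B-OE Control KO replicate 1 or 2, 1 without replicate 3, and 1, 1 and 2 without TRA2B-OE *TRA2A* KO replicate 1, 2 and 3, while the median stayed between 0.32 and 0.37. Here too the shares of all genes in the same fits are not given, so the loss of calls may not be particular to host genes. Short transcripts had a median of 0.02, with 0.362% higher and 0.242% lower.

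*SNHG6* went from 153, 171 and 173 TPM to 214, 193 and 210.1 TPM in the TRA2B-OE cells of LN319 (0.37, adjusted p = 0.0346). *GAS5* went from 441, 427 and 385 TPM to 505, 502 and 461 TPM (0.29, adjusted p = 0.0371), and *ZFAS1* from 86.8, 89.7 and 82.4 TPM to 91.0, 99.2 and 105 TPM (0.25, adjusted p = 0.105). In all 3 genes each *TRA2A* KO library was above each control library. The other called genes were *SNHG19* (0.73), *EPB41L4A-AS1* (0.69), *SNHG8* (0.63), *SNHG15* (0.50), *SNHG4* (0.49), *SNHG10* (0.48), *SNHG21* (0.46), *SNHG16* (0.32) and *SNHG1* (0.32).

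The knockouts of the 2 backgrounds have separate controls. *GAS5*, *SNHG4*, *SNHG6*, *SNHG8*, *SNHG10*, *SNHG16*, *SNHG19* and *SNHG21* were higher in both, which is 61.5% of the 13 genes of the Luc cells and 72.7% of the 11 of the TRA2B-OE cells. Over all genes, the shared calls were 16.3% of the 1316 of the Luc cells and 75.4% of the 285 of the TRA2B-OE cells. The difference between the backgrounds was tested itself, and 0 host genes passed by limma in LN319 (0.0207% of all genes passed), with 4 of 24 at an unadjusted p under 0.05 (7.91% of all genes).

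**Figure D4:**
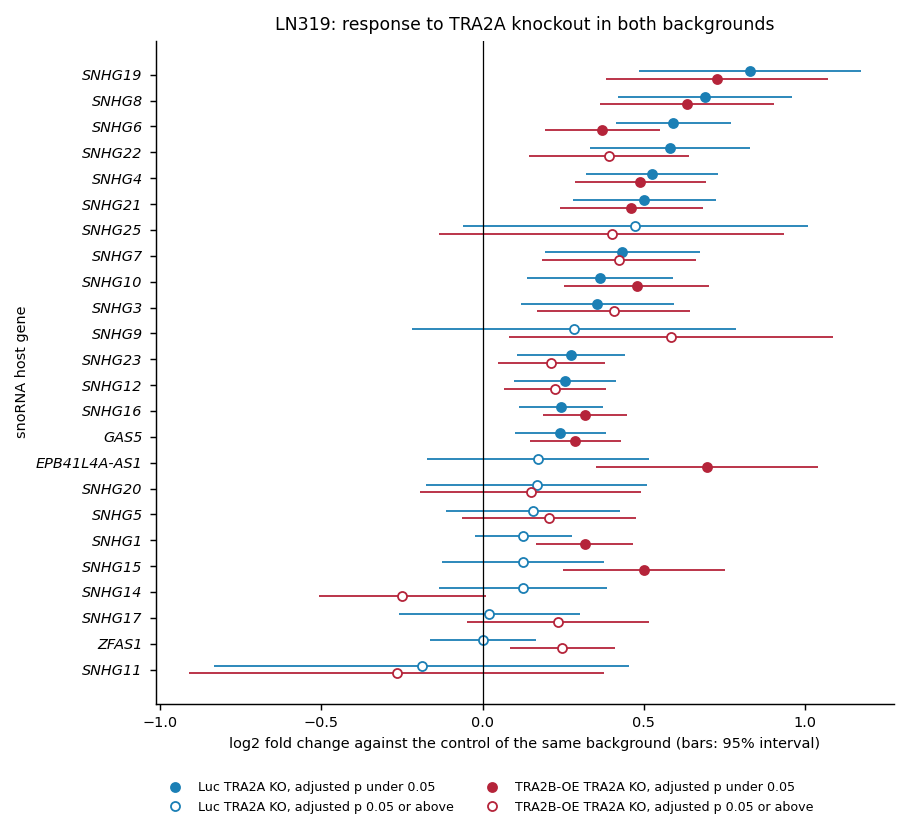
Log2 fold change of 24 host genes in LN319 after *TRA2A* KO, in Luc cells (blue) and TRA2B-OE cells (red), each against the control of its background, with 95% intervals and filled points for an adjusted p under 0.05. *SNHG19* is farthest right in both (0.83 and 0.73), and the intervals of the 2 backgrounds overlap for every gene.

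The *TRA2B* knockout of LN319 moved host genes in both directions. Of 24 tested, 10 were higher and 4 lower, where 18.6% of all genes were higher and 24% lower, and the median was 0.12. These libraries share the Luc Control KO libraries with the *TRA2A* KO. *SNHG22* went from 8.70, 9.63 and 9.31 TPM to 18.2, 21.5 and 20.8 TPM (1.01, adjusted p = 5.06e-05) and *SNHG4*, host of SNORA74A, from 15.3, 18.5 and 17.3 TPM to 35.3, 36.7 and 30.1 TPM (0.89, adjusted p = 3.44e-05). Both groups were far apart. *SNHG25*, the shortest of the host RNAs, had 1.04 (adjusted p = 0.00469), which became 0.58 (adjusted p = 0.109) with the trend across length and GC content removed. The genes *SNHG21*, *SNHG19*, *SNHG20*, *SNHG7*, *SNHG14*, *SNHG23* and *SNHG12* had 0.61 to 0.20.

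The lower genes were *EPB41L4A-AS1*, which fell by 0.54 on the log2 scale (adjusted p = 0.0159), *SNHG15* by 0.36 (0.0246), *ZFAS1* by 0.23 (0.0263) and *SNHG16* by 0.18 (0.0284). *ZFAS1* was at 78.0, 73.4 and 75.8 TPM, below its controls of 78.5 to 87.8 TPM, *GAS5* at 378, 349 and 348 TPM, within its control range, and *SNHG6* at 166, 173 and 173 TPM, below its controls but not past the test (-0.21, adjusted p = 0.0561). The split depended on scaling, with 12 higher and 1 lower on TPM as deposited and 11 and 2 after quantile normalization. Scaling moves all genes of a library, and their shares under these settings are not given, so this shift may not be particular to host genes. The *ZFAS1* call was lost without Luc Control KO replicate 1 (0.11) and without Luc *TRA2B* KO replicate 2 (0.0943) or 3 (0.0731), and the number called went from 14 to 9 without Luc Control KO replicate 1. Mitochondrial genes took 18.3% to 20.6% of the TPM of the *TRA2B* KO libraries and 12.1% to 12.8% of the controls, and short transcripts had a median log2 fold change of 0.37 with 9.54% higher and 4.29% lower. Their part in the result was not tested.

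Overexpression of *TRA2B* alone gave no called host gene in either glioma line. In LN319 0 host genes passed by limma in the TRA2B-OE Control KO, where 2.16% of all genes were higher and 2.16% lower, with 9 at an unadjusted p under 0.05 (25% of all genes) and a median of -0.12. Without Luc Control KO replicate 2, 1 host gene was called, and it was lower. In LN229 0 passed, where 0.795% were higher and 0.233% lower, with 2 at an unadjusted p under 0.05 (14.2%) and a median of 0.04.

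In LN229 1 host gene passed in the Luc *TRA2A* KO. *SNHG6* went from 288, 313 and 318 TPM to 401, 448 and 421 TPM (0.48 ± 0.10, adjusted p = 0.0287), where 1.86% of all 18490 genes were higher and 1.83% lower. Its call was lost without Luc Control KO replicate 1 (0.114) and without Luc *TRA2A* KO replicate 2 (0.0903) or 3 (0.121), and without Luc Control KO replicate 2 the number of host genes called was 2. *ZFAS1* went from 161, 202 and 203 TPM to 227, 256 and 254 TPM (0.40, adjusted p = 0.0548) and *GAS5* from 270.4, 334 and 311 TPM to 357, 382 and 358 TPM (0.28, adjusted p = 0.151). The knockout libraries were above the controls in all 3 genes. Over 24 host genes the median was 0.24, and 6 lay above the controls without overlap (13.3% of all genes).

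In the TRA2B-OE cells of LN229 0 host genes passed after *TRA2A* KO by limma, where 2.43% of all genes were higher and 3.64% lower, with 6 at an unadjusted p under 0.05 (22.4% of all genes) and a median of 0.14. *GAS5* went from 335, 347 and 366 TPM to 383, 444 and 483 TPM, *ZFAS1* from 219, 249 and 263 TPM to 279.8, 313 and 307 TPM (0.28, adjusted p = 0.145) and *SNHG6* from 257, 281 and 308 TPM to 276, 343 and 338 TPM. *GAS5* and *ZFAS1* did not overlap between the groups and *SNHG6* did. The difference between the backgrounds passed for 0 host genes and 0% of all genes by limma, with 2 host genes at an unadjusted p under 0.05 (5.68% of all genes). The number called was 1 without TRA2B-OE *TRA2A* KO replicate 1.

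In the *TRA2B* KO of LN229 0 host genes passed by limma, where 0.227% of all genes were higher and 0.341% lower, with 10 at an unadjusted p under 0.05 (23.3% of all genes) and a median of -0.09. *GAS5* was at 262, 255 and 238 TPM (-0.32, adjusted p = 0.122), *ZFAS1* at 144, 144 and 136 TPM (-0.45, adjusted p = 0.0696) and *SNHG6* at 337, 308 and 315 TPM, overlapping its controls. For *GAS5* and *ZFAS1* all 3 libraries were below all 3 controls. Without Luc Control KO replicate 1, 3 host genes were called higher and 5 lower, beside 8.66% and 12.2% of all genes, and without Luc *TRA2B* KO replicate 1 the count was 1.

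Over the 14 comparisons, 17 of the 25 host genes were called higher at least once and never lower, 4 were called in both directions (*EPB41L4A-AS1*, *SNHG15*, *SNHG16* and *ZFAS1*), 1 only lower (*SNHG17*) and 3 never (*SNHG9*, *SNHG11* and *SNHG18*). These are 68%, 16%, 4% and 12% of the host genes, and among the 22742 genes tested in any line the shares were 23.1%, 12.3%, 26.4% and 38.3%. *SNHG6* was higher in 5 of the 14, more than any other host gene, and *GAS5*, *SNHG7*, *SNHG8*, *SNHG19* and *SNHG21* in 4.

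Genes around the pathway were read from lists of names. Coding transcripts that NMD is known to degrade (7 genes) include stress response factors that are also induced by transcription. In the A549 DKD 6 were higher and 0 lower (14.3% and 16.3% of all genes), among them *ATF3*, a transcription factor of the stress response (4.51), *GADD45A* (2.92) and *GADD45B* (2.04), both growth arrest and DNA damage genes. In the NCI-H23 DKD 5 were higher and 0 lower (20% and 23.2% of all genes), with *ATF3* at 2.12 and *GADD45B* at 0.62. In Luc *TRA2A* KO 3 were higher in LN229 (1.86% of all genes) and 6 in LN319 (6.82%). In TRA2B-OE *TRA2A* KO 2 were higher in each (2.43% and 1.48% of all genes), with *GADD45A* at 0.74 in LN229 and 0.39 in LN319. In *TRA2B* KO 0 were higher, and 2 were lower in LN229 (0.341% of all genes) and 1 in LN319 (24%), *GADD45A*, which fell by 0.57. Their medians were 2.04 and 0.68 in the double knockdowns.

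The NMD factors themselves (10 genes) had a median of 0.22 in the A549 DKD and 0.09 in the NCI-H23 DKD, with 2 higher and 1 lower in each line. Among all genes, the A549 DKD had 14.3% higher and 16.3% lower. The shares of the NCI-H23 DKD were 20% higher and 23.2% lower. The counts of NMD factors therefore do not set them apart from other genes in either double knockdown. *SMG5*, which acts in the dephosphorylation of UPF1, was higher by 0.48 and 0.34, *UPF3B*, which links the exon junction complex to UPF2, by 1.11 and 0.34, and its paralog *UPF3A* fell by 0.51 and 0.39. In LN319 *TRA2B* KO 2 were higher and 3 lower (18.6% and 24% of all genes). In LN319 Luc *TRA2A* KO 2 were higher (6.82% of all genes), and in the LN229 comparisons 0 passed by limma.

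Protein-coding hosts of snoRNAs (18 genes) went in both directions, and their difference from the noncoding hosts was not tested. In the A549 DKD 2 were higher and 7 lower, where 14.3% of all genes were higher and 16.3% lower. In the NCI-H23 DKD 4 were higher and 5 lower, close to the 20% and 23.2% of all genes. *TCP1*, a chaperonin subunit, fell by 0.54 and 0.31, *PRRC2A*, an RNA-binding protein, by 0.38 and 0.59, and *HSPA8*, a constitutive chaperone, fell by 0.37 in A549 and was 0.44 higher in NCI-H23. In LN319 *TRA2B* KO 0 were higher and 15 lower, where 18.6% of all genes were higher and 24% lower. The core proteins of the snoRNA particles (8 genes in the tables) had 0 higher and 1 lower in each double knockdown, *DKC1*, the pseudouridine synthase (-0.50), in A549 and *FBL*, the methyltransferase (-0.27), in NCI-H23. In LN319 *TRA2B* KO 1 was higher, *NOP56*, itself a snoRNA host (0.17), and 6 were lower, with *FBL* falling by 0.75.

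**Figure D5:**
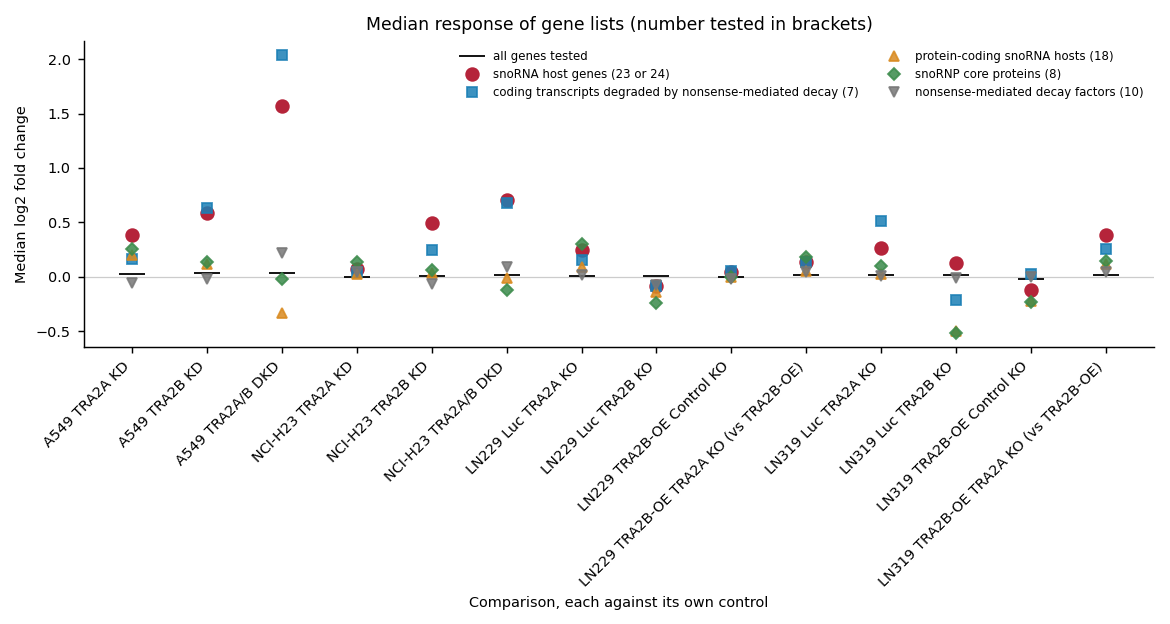
Median log2 fold change (vertical axis) of the host genes and of the named lists in each of the 14 comparisons, with the median of all genes tested as a dash. In the double knockdowns the host genes (1.57 and 0.70) and the NMD-degraded coding transcripts (2.04 and 0.68) lie above the dash, and the protein-coding hosts (-0.33 and -0.01) do not.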

How the data were processed

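Polyadenylated RNA of 54 samples was sequenced from directional libraries, per the labels. The submitters' processing notes name kallisto 0.48.0 and STAR 2.7.3 on GRCh38, and the study's methods name Gencode v34. The authors deposited gene-level TPM, 1 table per cell line. TPM keeps no record of depth, so the precision is the spread of 3 replicates, and no intervals from counting were given.

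Groups came from the sample labels. In each line, genes reaching 1 TPM in 4 or more libraries were kept. Libraries were scaled by TMM without weights (trims 0.3 and 0.05), and values taken as log2(TPM + 0.1). limma 3.58.1 in R 4.3.3 was fitted to all libraries of the line with a mean-variance trend. p-values are two-sided and adjusted after Benjamini and Hochberg across every gene tested. A call is an adjusted p under 0.05. The study's limma-voom needs counts and was not run. The fit was tested on simulated data.

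Members and lists were chosen with earlier results of these data known. Values in full are given for *GAS5*, *ZFAS1*, *EPB41L4A-AS1*, *SNHG1* and genes called in both double knockdowns, and in the glioma lines for *GAS5*, *ZFAS1* and genes called in both lines. List examples are those called in most comparisons, ties by symbol. *DKC1*, *FBL*, *NOP56*, *SNHG9*, *SNHG22* and *SNHG25* were named in places after their values were seen. Alternatives varied the pseudocount, filter, scaling, fitted groups, replicate block and libraries. Removal of the length and GC trend (natural splines, 4 degrees of freedom) and leaving out 3 NCI-H23 libraries were added after seeing the data.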

Additional observations from a re-analysis of the deposited data

Results flagged for a closer look

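In 3 host genes the double knockdown differed from the sum of the single knockdowns by the test of that difference (limma, adjusted over all genes). This was 1 of 24 host genes in A549, beside 14.7% of all genes, and 2 of 23 in NCI-H23, beside 21%. The share of host genes was thus below that of all genes in both lines. *SNHG16* in A549 exceeded the sum by 0.53 on the log2 scale (adjusted p = 0.0464), and under the alternatives its adjusted p ran from 0.0166 to 0.162. *SNHG17* in NCI-H23 had a difference of -0.80 (adjusted p = 0.0121, range 0.00662 to 0.042). *ZFAS1* in NCI-H23 exceeded the sum by 0.79 (adjusted p = 0.0283, range 0.00502 to 0.116).

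In 2 host genes every library of 1 cell line moved one way and every library of another line the opposite way under the same perturbation. *SNHG16* after *TRA2B* KD had a log2 fold change of -0.15 in A549 and 0.13 in NCI-H23, a difference of 0.28. *SNHG12* after Luc *TRA2B* KO had -0.71 in LN229, where the controls were at 27.8, 48.1 and 40.5 TPM and the knockout at 22.6, 24 and 24.9 TPM, and 0.20 in LN319, where they were at 80.3, 72.3 and 67.2 TPM and at 93.6, 89.9 and 88.1 TPM, a difference of 0.91. These 2 differences were not tested. Of the 23 host genes tested in both lines, 1 did so in each of these comparisons, beside 0.595% of all genes for *TRA2B* KD and 3.42% for *TRA2B* KO. In every other perturbation given to both lines 0 of 23 did, beside 0.872% to 2.3% of all genes. These counts are too small to set host genes apart from other genes.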

How the results depend on the processing

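No alternative reversed a called host gene. The number of host genes called was 14 in the A549 double knockdown, where 14.3% of all genes were higher and 16.3% lower. With only the 2 groups fitted it was 7, where 8.28% of all genes were higher and 9.53% lower. With 1 library left out the number was 10 to 14 (median 1.00 to 1.91). In the NCI-H23 double knockdown it was 9, and 6 to 15 (median 0.36 to 0.96), and 14 without the 3 NCI-H23 libraries that were lowest of their group in short RNA. Those 3 left out gave 1 call in the *TRA2A* KD, 7 non-additive genes and a median of 0.28 in the *TRA2B* KD. With 1 library left out, A549 *TRA2A* KD had 0 to 1 calls and a median of -0.017 to 0.75, A549 *TRA2B* KD 0 to 1 and 0.15 to 0.69, NCI-H23 *TRA2A* KD a median of -0.12 to 0.23 and NCI-H23 *TRA2B* KD 0.28 to 0.60, and the non-additive genes numbered 0 to 6 in A549 and 1 to 3 in NCI-H23. In LN229 the calls were 0 to 2 for Luc *TRA2A* KO (median 0.14 to 0.32), 0 to 8 for *TRA2B* KO (-0.18 to -0.027), 0 for TRA2B-OE (0.022 to 0.14) and 0 to 1 for TRA2B-OE *TRA2A* KO (0.09 to 0.26). In LN319 they were 6 to 10 (0.24 to 0.31), 9 to 14 (0.06 to 0.17), 0 to 1 (-0.17 to -0.071) and 1 to 3 (0.32 to 0.37) in the same order. With no filter on low values the calls were 0 non-additive in A549 and 1 in NCI-H23, 0 in LN229 Luc *TRA2A* KO, and 7 and 2 in LN319 Luc and TRA2B-OE *TRA2A* KO. With only 2 groups fitted they were 0, 7 and 0 in the last 3 (0% of all genes higher and 0.00541% lower in LN229). On TPM as deposited they were 2 in LN229 Luc and in TRA2B-OE *TRA2A* KO, 1 in LN319 TRA2B-OE (median -0.032) and 7 in LN319 TRA2B-OE *TRA2A* KO (0.32), with medians of 0.60 in NCI-H23 *TRA2B* KD and 0.23 in LN319 *TRA2B* KO. At a minimum of 5 TPM LN229 had 2, 1 and 2 calls in Luc *TRA2A* KO, *TRA2B* KO and TRA2B-OE *TRA2A* KO and LN319 TRA2B-OE 1. Quantile normalization gave the same 2, 1 and 2 in LN229 and a median of 0.26 in LN319 *TRA2B* KO. With the length and GC trend removed, A549 had 0 non-additive genes and a median of 0.32 in *TRA2B* KD, LN229 had 0, 1 and 1 calls, and LN319 TRA2B-OE 3. Without a minimum fold change, differentially expressed host genes rose from 0 to 1 in LN229 Luc *TRA2A* KO, from 0 to 13 in LN319 Luc *TRA2A* KO, from 2 to 14 in LN319 *TRA2B* KO and from 0 to 11 in LN319 TRA2B-OE *TRA2A* KO. The cause of these shifts was not tested. Apart from the 2-group fits of the A549 double knockdown and of LN229, shares of all genes are not given with these counts. No other shift here is set against that of other genes.

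In 0 of the 14 comparisons did all 3 same-numbered pairs correlate above 0.1 (range -0.15 to 0.21). This does not exclude that replicate numbers pair libraries, and pairing was not tested. With the replicate block, A549 had 0 non-additive genes, LN229 had 3 calls in Luc *TRA2A* KO, 7 in *TRA2B* KO and 2 in TRA2B-OE *TRA2A* KO, and LN319 TRA2B-OE had 2. The block moved no other count by over 1.5 times. In LN229 it also raised the shares of all genes called. They went from 1.86% higher and 1.83% lower to 4.08% and 4.49% in Luc *TRA2A* KO. In *TRA2B* KO they went from 0.227% and 0.341% to 2.95% and 4.06%. Depth behind single TPM values is unknown, and the length and GC trend could be removed only for genes with a length, 81.6% of those tested in each lung line, 77.7% in LN229 and 77.5% in LN319.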
